A study of Mus musculus with 12 samples.

Results

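Short CDR3 rearrangements of the T-cell receptor β chain (TCRβ) were examined in 12 libraries, and were defined as productive rearrangements whose CDR3 spans 33 nucleotides or less, which is 11 amino acid (AA) residues or fewer. Of the 205925 productive rearrangements listed over the libraries, 11300 (5.49%) met this limit, and they carried 37892 of 492478 productive templates (7.69%), where a template is one counted copy of a rearranged gene and stands for about one cell. They comprised 10055 distinct nucleotide rearrangements and 6152 distinct AA sequences. The libraries came from age-matched female C57BL/6 mice that bore MC38 tumors, a mouse colon adenocarcinoma line, and that received anti-CTLA-4 Ab and anti-PD-L1 Ab. Splenic CD8 T cells were sorted into CD27loCX3CR1lo, CD27hiCX3CR1lo and CX3CR1hi subsets, and CD8 TILs (tumor-infiltrating lymphocytes) were isolated from the tumors by CD8a positive selection, 2 weeks after treatment began. Every group has 1 library per experiment, and the 3 experiments are called A, B and C here. The study describes several mice per experiment, so that each library was treated as pooled cells. All 4 groups share the tumor and the treatment, and no untreated group was analysed. The files hold TCRβ rearrangements only, so that the sorted phenotypes could not be checked against other markers.

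The CDR3 is the loop of the TCR that lies over the peptide held by an MHC molecule, and it is the most variable stretch of the receptor. It is built when a V, a D and a J gene segment are joined in the thymus, with bases trimmed from the segment ends and untemplated bases, called N insertions, added at the joints by terminal deoxynucleotidyl transferase. A CDR3 is short when the segments are trimmed deeply, few N bases are added, or the D segment leaves little trace. CX3CR1, a chemokine receptor, marks differentiated effector CD8 T cells, and CD27 is a costimulatory receptor that such cells lose.

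The CDR3 sequences below were the most abundant short ones of the CX3CR1hi and TIL libraries, or were found in all 6 of these libraries, and they are shown because the expanded clones described later carry them. Each line gives the main nucleotide rearrangement behind the AA sequence, from the conserved cysteine codon to the end of the sequenced window. The last codon, which encodes the closing F, lies beyond that window. Lower case marks bases that the files place in the V or J segment, and capitals mark the bases between them, which are N or D bases.
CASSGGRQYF: tgtgccagcagtgGGGGGAGGcagtac
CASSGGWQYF: tgtgccagcagtgGGGGGTGGcagtac
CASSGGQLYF: tgtgccagcagtgGGgggcagctctac
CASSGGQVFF: tgtgccagcagtgGGGGGCaagtcttc
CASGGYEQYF: tgtgccagcggtgGGtatgaacagtac
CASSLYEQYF: tgtgctagcagtttatatgaacagtac
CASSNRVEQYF: tgtgccagcagCAACAGGGTtgaacagtac
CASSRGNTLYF: tgtgccagcagCCGGggaaatacgctctat
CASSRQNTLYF: tgtgccagcagCCgtcaaaacaccttgtac
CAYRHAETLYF: tgtgcctACCGACACgcagaaacgctgtat
The 4 sequences that begin CASSGG used TCRBV13-01 with 3 bases trimmed from the V end, and their J ends lost 8 to 12 bases. The main rearrangement of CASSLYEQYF had no capital base, since its TCRBV29-01 part ran straight into TCRBJ02-07. In contrast, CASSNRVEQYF had 9 bases between TCRBV19-01 and TCRBJ02-07, and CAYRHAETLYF had 8 between TCRBV31-01 and TCRBJ02-03. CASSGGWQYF differed from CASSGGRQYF by 1 substitution (R7W, counted from 1 at the first cysteine), and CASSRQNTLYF differed from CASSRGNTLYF by G6Q.

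Most short CDR3s lay at the limit. The median CDR3 length of all productive rearrangements was 42 nucleotides, and short ones ran from 9 to 33 nucleotides. In each library 60.4% to 82.0% of unique short rearrangements had exactly 33 nucleotides and 15.0% to 34.9% had 30 nucleotides. Only 386 (3.42%) had 27 nucleotides or less. Just outside the limit, rearrangements of 36 nucleotides made up 10.6% ± 0.357 of unique rearrangements in CD27loCX3CR1lo cells, where those of 33 nucleotides made up 4.34% ± 0.293. In TILs these shares were 9.38% ± 1.05 and 3.55% ± 0.522 (SD, n = 3). Of all short rows, 98.8% began with C and ended with F, as a complete CDR3 does, and 134 did not. The J gene was unresolved in 1.09% of short rows and in 0.0473% of longer ones.

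The share of unique rearrangements that were short lay in a narrow range, from 4.88% to 6.00% over the 12 libraries. Of the unique productive rearrangements, 5.53%, 5.68% and 5.45% were short in CD27loCX3CR1lo cells of experiments A, B and C. The shares were 5.40%, 5.50% and 5.37% in CD27hiCX3CR1lo cells, and 6.00%, 5.60% and 5.95% in CX3CR1hi cells. In TILs they were 5.37%, 5.23% and 4.88%. The CX3CR1hi and TIL libraries together differed from the CX3CR1lo subsets by 0.0166 ± 0.199 percentage points (mean ± SD of 3 experiments), with p = 0.926 in a two-sided exact permutation test that exchanged groups inside each experiment. CX3CR1hi cells alone were 0.361 ± 0.302 percentage points above the CX3CR1lo subsets, in 3 of 3 experiments, which did not pass the threshold of 0.05 with the experiment as replicate block (two-sided exact permutation test, p = 0.0741) and did without it (p = 0.0238). That pairing is the study's design, so that the first value is the one to read. With a minimum of 2 templates per rearrangement the directions turned, to −0.879 points for CX3CR1hi cells and to −1.44 for the CX3CR1hi and TIL libraries together, and the latter difference passed the threshold (p = 0.0185 in the exact permutation test). TILs were 0.688 ± 0.351 points below CX3CR1hi cells in 3 of 3 experiments, and the exact sign-flip test gave p = 0.25, the smallest that 3 experiments allow. With every library drawn down to 5893 templates, the depth of the smallest one, the shares were 6.03% ± 0.108, 6.28% ± 0.115 and 6.56% ± 0.338 in the 3 splenic groups in the same order and 5.38% ± 0.0177 in TILs (SD, n = 3).

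**Figure D1:**
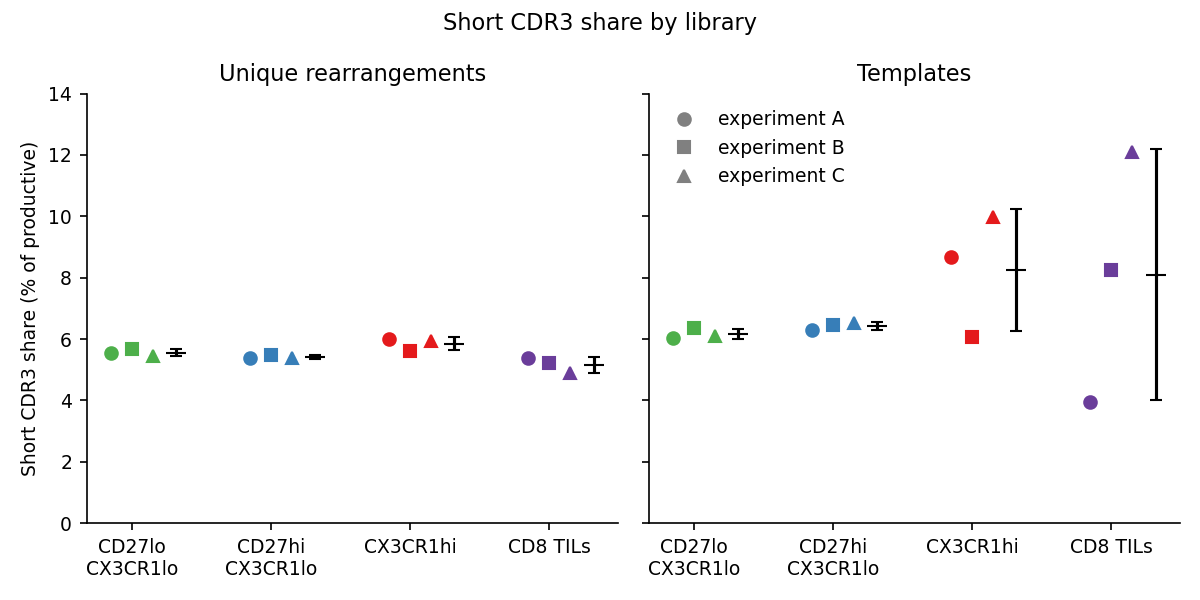
Short CDR3 share of productive unique rearrangements (left) and of productive templates (right) in percent, for each of the 12 libraries by group, with a symbol for each experiment and the group mean ± SD (n = 3) in black. Unique shares lay between 4.88% and 6.00%, while template shares ran from 3.94% to 12.1% in the CX3CR1hi and TIL libraries.

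By contrast, the templates that short rearrangements carried varied widely in CX3CR1hi cells and TILs. Short CDR3s held 6.03%, 6.36% and 6.11% of productive templates in CD27loCX3CR1lo cells and 6.29%, 6.44% and 6.53% in CD27hiCX3CR1lo cells of experiments A, B and C. They held 8.68%, 6.08% and 9.98% in CX3CR1hi cells. In TILs the share was 3.94% (Wilson 95% confidence interval, 3.47 to 4.46) in A, 8.25% (7.78 to 8.75) in B and 12.1% (11.7 to 12.6) in C, so that the highest and the lowest shares of all libraries were both in TILs. The CX3CR1hi and TIL libraries exceeded the CX3CR1lo subsets by 1.88 ± 2.49 percentage points (SD, n = 3), in 3 of 3 experiments, which did not pass the threshold (two-sided exact permutation test, p = 0.148). The difference was 0.144 points in A, 0.763 in B and 4.73 in C, and without experiment C it was 0.454. After the most abundant short rearrangement of each library was left out, the difference was −0.00485 points (p = 1 in the exact permutation test).

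Short rearrangements held more templates each than longer ones in nearly all libraries. Whether the templates of a rearrangement came from the same clone could not be told in pooled cells. The mean number of templates per short rearrangement divided by that per longer one was 1.10 to 1.13 in CD27loCX3CR1lo cells and 1.18 to 1.23 in CD27hiCX3CR1lo cells. It was 1.49, 1.09 and 1.75 in CX3CR1hi cells of experiments A, B and C, and 0.722, 1.63 and 2.69 in TILs. The ratio was thus above 1 in 11 of 12 libraries, the exception being TILs of experiment A. Rearrangements seen in 1 template were less frequent among short ones in all 12 libraries: they made up 55.2% to 62.3% of short and 69.2% to 77.4% of longer rearrangements in the CX3CR1lo subsets, and 42.2% to 48.2% against 54.8% to 58.9% in the CX3CR1hi and TIL libraries. The 10 most abundant short rearrangements held 1.75% to 5.97% of short templates in the CX3CR1lo libraries and 56.5% to 89.2% in the CX3CR1hi and TIL libraries.

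Among the short lengths, template share exceeded unique share most at 30 nucleotides in CX3CR1hi cells of experiments A and C and in TILs of C, and at 33 nucleotides in both libraries of B. In B, rearrangements of 33 nucleotides made up 3.87% of unique rearrangements and 6.64% of templates in TILs, and 4.40% and 5.23% in CX3CR1hi cells, while those of 30 nucleotides made up 1.00% and 0.739% in CX3CR1hi cells. Rearrangements of 30 nucleotides made up 1.15% ± 0.128 of unique rearrangements but 2.73% ± 1.80 of templates in CX3CR1hi cells (SD, n = 3). In TILs these shares were 1.38% ± 0.306 and 4.31% ± 4.88. The corresponding template shares were 1.17% ± 0.231 in CD27loCX3CR1lo and 1.27% ± 0.0566 in CD27hiCX3CR1lo cells. In TILs of experiment C, 82.1% of all short templates had a CDR3 of 30 nucleotides, compared with 34.9% of its unique short rearrangements. Under a limit of 30 nucleotides the unique share was also higher in the CX3CR1hi and TIL libraries, by 0.278 points (p = 0.00926 in the exact permutation test, the smallest that this design can give). Under a limit of 36 nucleotides that difference turned to −0.439 points (p = 0.556 in the exact permutation test), so that the contrast between the groups depended on where the limit was set.

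**Figure D2:**
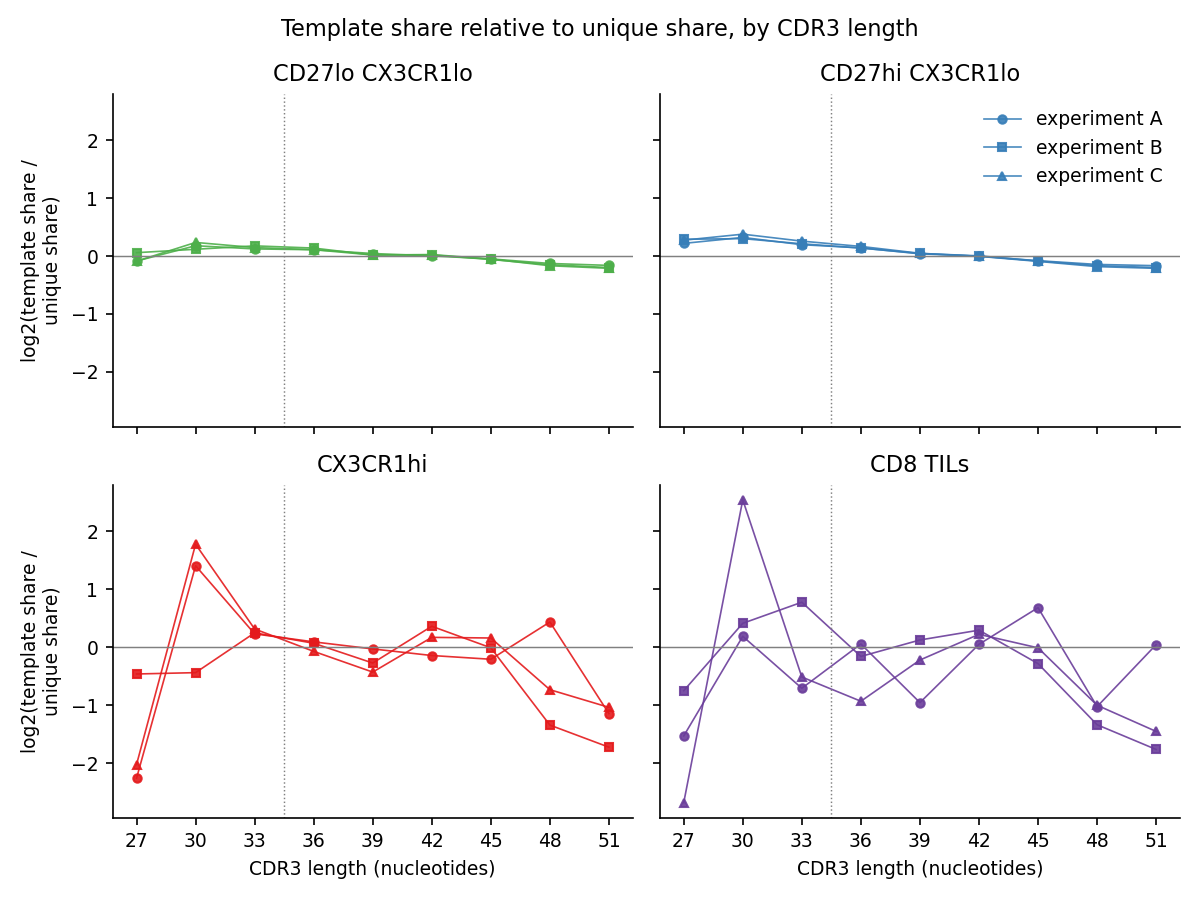
Template share divided by unique share at each CDR3 length from 27 to 51 nucleotides, as log2, in each library of the 4 groups, with the limit of 33 nucleotides marked by a dotted line and equal shares by the line at 0. The CX3CR1lo libraries stayed close to 0, whereas CX3CR1hi and TIL libraries scattered, with the highest points at 30 nucleotides in experiments A and C of CX3CR1hi cells and experiment C of TILs.

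Short CDR3s were assembled with deeper trimming and fewer added bases than longer ones, as their length requires, and these values are therefore a description. Over the 12 libraries short rearrangements carried a mean of 1.68 N insertions (range 1.51 to 1.94), compared with 3.58 (3.51 to 3.65) in longer ones, and 30.9% of them had no N base at all against 8.04%. The V end had lost a mean of 3.95 bases compared with 2.58, the J end 5.15 compared with 2.70 and the D segment 8.20 compared with 5.84. No D segment was left in 19.3% of short and 1.16% of longer rearrangements, and in a further 33.8% and 16.2% the files could not tell TCRBD01-01 from TCRBD02-01. Each of these differences had the same direction in 12 of 12 libraries. Between groups, short rearrangements of the CX3CR1hi and TIL libraries had 0.155 ± 0.0488 more N insertions than those of the CX3CR1lo subsets, in 3 of 3 experiments, which did not pass the threshold (two-sided exact permutation test, p = 0.120). The means were 1.57 ± 0.0525 in CD27loCX3CR1lo, 1.63 ± 0.0579 in CD27hiCX3CR1lo, 1.66 ± 0.143 in CX3CR1hi cells and 1.85 ± 0.133 in TILs (SD, n = 3). With CDR3s from C to F only, the difference was −0.00868, so that it rested on the few rows without the usual ends.

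A short CDR3 favored certain V and J genes. TCRBJ02-07, whose untrimmed part of the CDR3 ends in the residues EQYF, was used by 45.4% of unique short rearrangements (range over libraries 41.5% to 55.7%) and by 20.2% of longer ones (18.3% to 21.7%). TCRBJ01-01 was used by 16.7% against 9.02%. These J genes begin the first J cluster and close the second one. Among V genes, TCRBV13-02 was used by 12.2% of short and 8.84% of longer rearrangements, TCRBV13-03 by 9.90% and 6.23%, TCRBV29-01 by 9.05% and 5.81%, and TCRBV13-01 by 9.01% and 6.16%. TCRBV31-01, the V gene that lies downstream of the constant regions in inverted orientation, was used by 4.99% and 2.41%, and TCRBV20-01 by 5.00% and 2.45%. Of the 32 V and J genes with at least 1% of short or longer rearrangements, 5 were above their longer share in 12 of 12 libraries (15.6%) and 12 were below it in all 12 (37.5%). The 5 were TCRBV13-01, TCRBV13-02, TCRBV20-01, TCRBV31-01 and TCRBJ02-07. Genes furthest below their longer share were TCRBV03-01 (3.05% of short, 7.05% of longer), TCRBV05-01 (1.93% and 5.46%) and TCRBV12-01 (5.01% and 7.70%), and among J genes TCRBJ02-01 (6.68% and 13.5%) and TCRBJ02-03 (2.33% and 8.14%). Both TCRBV19-01 (7.90% and 8.20%) and TCRBV16-01 (5.76% and 6.54%), the next most used V genes of short rearrangements, had similar shares in longer ones. J segments differ in coding length, and their part in these shares was not tested.

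**Figure D3:**
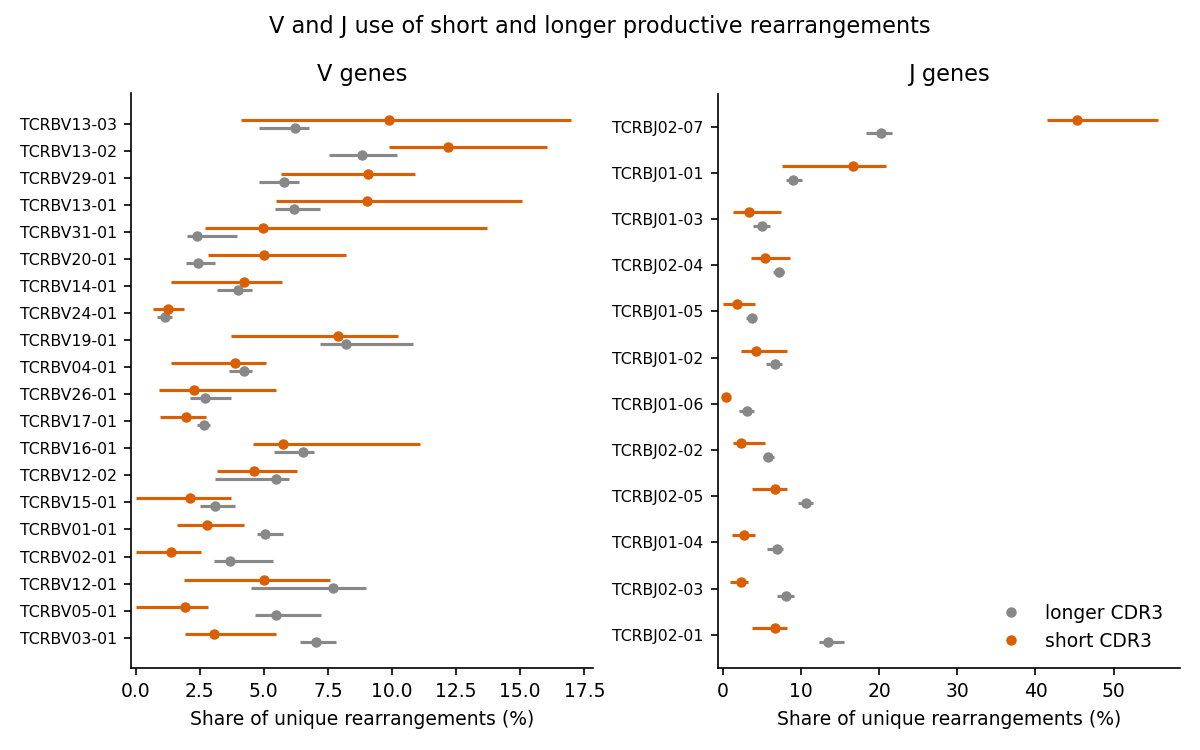
Share of unique productive rearrangements in percent that used each V gene (left) and J gene (right), for short (orange) and longer (gray) CDR3s, with points for the mean over the 12 libraries and bars from the lowest to the highest library. TCRBJ02-07 stands apart, at 45.4% of short and 20.2% of longer rearrangements.

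V and J use among short unique rearrangements was compared between groups for the 31 genes with at least 1% on average. None passed the threshold after Benjamini-Hochberg adjustment (0 of 31, 0% of the genes tested), while 5 had an unadjusted p under 0.05 (TCRBV14-01, TCRBJ01-01, TCRBJ02-01, TCRBJ02-02 and TCRBJ02-07). The smallest p that this exact permutation test can give is 0.00926. With 31 genes, a single gene at that value could not pass after adjustment, and several would have to reach it together. The count of 0 therefore does not show that gene use was alike in the groups. The lowest p belonged to TCRBJ02-07, which was 3.60 points higher in the CX3CR1hi and TIL libraries (p = 0.0185 and adjusted p = 0.261, two-sided exact permutation test). TCRBV31-01 made up 8.41% ± 4.65 of unique short rearrangements in TILs and 4.22% ± 0.576, 3.21% ± 0.465 and 4.10% ± 1.10 in CD27loCX3CR1lo, CD27hiCX3CR1lo and CX3CR1hi cells (SD, n = 3), and its difference between the groups did not pass (p = 0.0926 in the exact permutation test, adjusted p = 0.261).

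When templates were counted in place of unique rearrangements, the use of 12 of 30 genes (40% of those tested) was lower in the CX3CR1hi and TIL libraries and that of none was higher. They were 8 V genes (TCRBV03-01, TCRBV04-01, TCRBV05-01, TCRBV12-01, TCRBV15-01, TCRBV20-01, TCRBV26-01 and TCRBV29-01) and 4 J genes (TCRBJ01-04, TCRBJ02-01, TCRBJ02-05 and TCRBJ02-07). Shares within a library add up to the whole, so that these calls are not independent. The 10 most abundant short rearrangements held 56.5% to 89.2% of short templates in these libraries and 1.75% to 5.97% in the CX3CR1lo libraries. Their part as a set was not tested, and no such count is given for longer rearrangements. TCRBV29-01 held 3.24% of short templates in the CX3CR1hi and TIL libraries (range 0.473% to 8.20%) and 9.65% in the CX3CR1lo libraries (8.34% to 10.8%), with no overlap (two-sided exact permutation test, p = 0.00926, adjusted p = 0.0278). TCRBV12-01 held 1.22% (0.118% to 2.59%) and 5.75% (3.89% to 7.87%), with the same adjusted p of 0.0278. TCRBV13-01 was the gene with the largest template gain, 27.7% against 8.28%, but it ranged from 5.09% to 67.3% over the CX3CR1hi and TIL libraries and missed the threshold (adjusted p = 0.0595, exact permutation test). TCRBJ02-07 dropped by 13.6 percentage points, to 42.7% from 56.4%, although its share of unique rearrangements was the higher one, and this call did not survive a different count of unresolved J genes. In experiment C, 59.9% of short TIL templates and 30.7% of short CX3CR1hi templates had a J gene that the files leave unresolved, among them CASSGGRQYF and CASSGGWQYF, whose 12 trimmed J bases left TCRBJ02-05 and TCRBJ02-07 as a tie. With such ties counted as TCRBJ02-07, its difference was 1.11 points (adjusted p = 0.891, exact permutation test) and 9 genes were lower. Without the most abundant short rearrangement of each library, 7 genes were lower, TCRBV12-01 among them (adjusted p = 0.0410, exact permutation test), but TCRBV29-01 lost its call (adjusted p = 0.0638) and reached 9.97% in CX3CR1hi cells of A, within the CX3CR1lo range.

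Short rearrangements were shared between experiments more often than longer ones. Of the distinct short nucleotide rearrangements of an experiment, 12.6%, 12.6% and 10.9% (A, B and C) were also found in another experiment, compared with 5.04%, 5.22% and 4.31% of longer ones. The difference was 7.18 ± 0.517 percentage points (SD, n = 3), in 3 of 3 experiments (exact sign-flip permutation test, p = 0.25, the smallest possible), and was 4.25 points at equal depth. Sharing did not fall evenly with length: it was 6.52% ± 1.30 at 27 nucleotides, highest at 30 nucleotides with 14.5% ± 1.70, and 11.7% ± 0.836 at 33 nucleotides. Beyond the limit it fell to 8.15% ± 0.857 at 36 and 5.84% ± 0.539 at 42 nucleotides. Of the distinct rearrangements, 88 short ones (0.875%) and 415 longer ones (0.226%) were found in all 3 experiments. Of those 88, 58 (65.9%) had no N insertion and 56 (63.6%) used TCRBJ02-07, while 25.5% of the short rearrangements found in 1 experiment only had no N insertion.

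**Figure D4:**
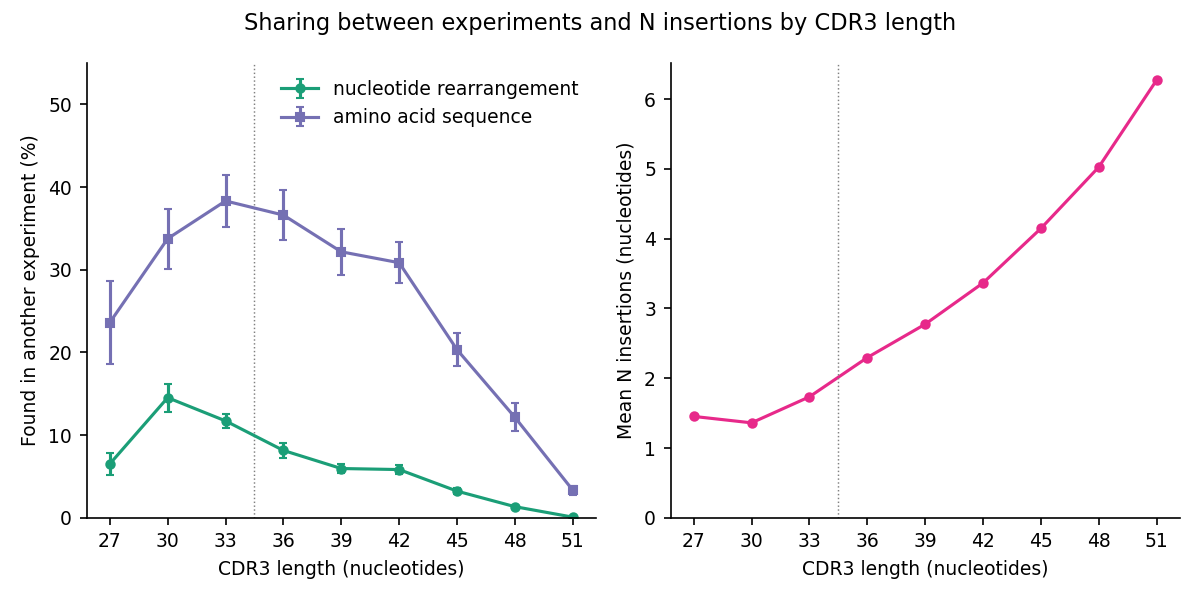
Percent of distinct nucleotide rearrangements and of AA sequences found in another experiment (left, mean ± SD over 3 experiments) and mean number of N insertions (right), by CDR3 length in nucleotides, with the limit of 33 marked by a dotted line. Nucleotide sharing was highest at 30 nucleotides, at 14.5%, where N insertions were fewest, at 1.36.

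At a matched number of N insertions, the gap in sharing between short and longer rearrangements was narrower. Without N insertions, 24.4% ± 2.10 of short and 21.8% ± 1.68 of longer rearrangements were found in another experiment (SD, n = 3). With 1 to 2 insertions the shares were 10.2% ± 0.578 and 8.32% ± 0.622. With 3 to 4 insertions the order was the other way, at 1.23% ± 0.0902 and 2.31% ± 0.185. With 5 or more insertions 0 of 651 short rearrangements were found in another experiment, compared with 0.333% ± 0.0670 of longer ones.

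Among short AA sequences, 22.9% had more than 1 nucleotide rearrangement, compared with 16.6% of longer ones. A short CDR3 AA sequence had a mean of 1.63 nucleotide rearrangements, compared with 1.38 for a longer one. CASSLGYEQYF had the most among short ones, with 42, and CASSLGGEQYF followed with 38. Of the short AA sequences, 422 of 6152 (6.86%) were found in all 3 experiments, compared with 4713 longer ones (3.53%). At the AA level sharing was highest at the limit itself, at 38.3% ± 3.13 for 33 nucleotides, compared with 33.8% ± 3.64 for 30 and 36.6% ± 3.06 for 36 (SD, n = 3).

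By group, the share of short rearrangements found in another experiment was highest in TILs, as it was for longer ones. It was 18.8% ± 2.95 in TILs, compared with 14.4% ± 0.759 in CD27loCX3CR1lo, 12.9% ± 0.797 in CD27hiCX3CR1lo and 13.9% ± 1.72 in CX3CR1hi cells (SD, n = 3). For longer rearrangements it was 6.89% ± 0.852 in TILs, 5.36% ± 0.588, 5.05% ± 0.432 and 5.89% ± 0.681 in the splenic groups in the same order. For short ones, TILs were 4.96 ± 1.99 percentage points above CX3CR1hi cells, in 3 of 3 experiments (exact sign-flip permutation test, p = 0.25, the smallest possible). The CX3CR1hi and TIL libraries exceeded the CX3CR1lo subsets by 2.70 ± 1.65 points, in 3 of 3 experiments, which did not pass the threshold (two-sided exact permutation test, p = 0.102). This measure depends on depth, because the CD27hiCX3CR1lo libraries list many more rearrangements than the others. At equal depth the shares were 6.35% ± 0.434 in CD27loCX3CR1lo, 6.25% ± 0.186 in CD27hiCX3CR1lo, 9.11% ± 1.59 in CX3CR1hi cells and 11.6% ± 1.42 in TILs, and the difference of 4.06 points passed (p = 0.00926, exact permutation test, the smallest possible). The larger clones of the CX3CR1hi and TIL libraries are more likely to stay in such a draw, and the part of clone size in the difference was not tested.

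Within an experiment, short TIL rearrangements were often found among CX3CR1hi cells. Of the 73, 81 and 106 unique short rearrangements of TILs in experiments A, B and C, 26.0%, 45.7% and 50.0% were in the CX3CR1hi library of the same experiment, and they carried 56.5%, 91.9% and 71.3% of short TIL templates. The corresponding shares of longer rearrangements were 20.0%, 37.6% and 46.3% of unique and 64.2%, 85.0% and 87.8% of templates. The short share was thus the higher one in 3 of 3 experiments by unique rearrangements and in 1 of 3 by templates. In the other direction, short rearrangements also found in TILs carried 20.8%, 58.0% and 78.8% of short CX3CR1hi templates, and longer ones carried 22.6%, 53.8% and 70.0% of longer templates.

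Expanded rearrangements, defined as at least 0.1% of a library's productive templates, were counted in each library. In CX3CR1hi cells 15 of 143, 12 of 126 and 10 of 144 expanded rearrangements were short in experiments A, B and C, and in TILs 7 of 115, 13 of 128 and 11 of 131. The 6 CX3CR1lo libraries held 18 expanded rearrangements in all, 0 of them short, which is too few to compare with the other groups. In the CX3CR1hi and TIL libraries short CDR3s made up 8.60% of expanded and 5.50% of all unique rearrangements, a difference of 3.10 ± 1.17 percentage points (SD, n = 3) in 3 of 3 experiments (exact sign-flip permutation test, p = 0.25, the smallest possible). The template count that 0.1% requires differed between libraries, from 6 in TILs of experiment A to 114 in CX3CR1hi cells of experiment C. Expanded members carried 50.4% to 90.2% of the short templates of these libraries. Those expanded in both CX3CR1hi cells and TILs of an experiment numbered 2, 7 and 4, and 5 of 7, 12 of 13 and 10 of 11 short rearrangements expanded in TILs were present in CX3CR1hi cells. The corresponding shares of longer rearrangements expanded in TILs were 62.0%, 87.0% and 94.2%. In the other direction, 3 of 15, 9 of 12 and 8 of 10 short rearrangements expanded in CX3CR1hi cells were present in TILs, compared with 29.7%, 52.6% and 89.6% of longer ones.

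**Figure D5:**
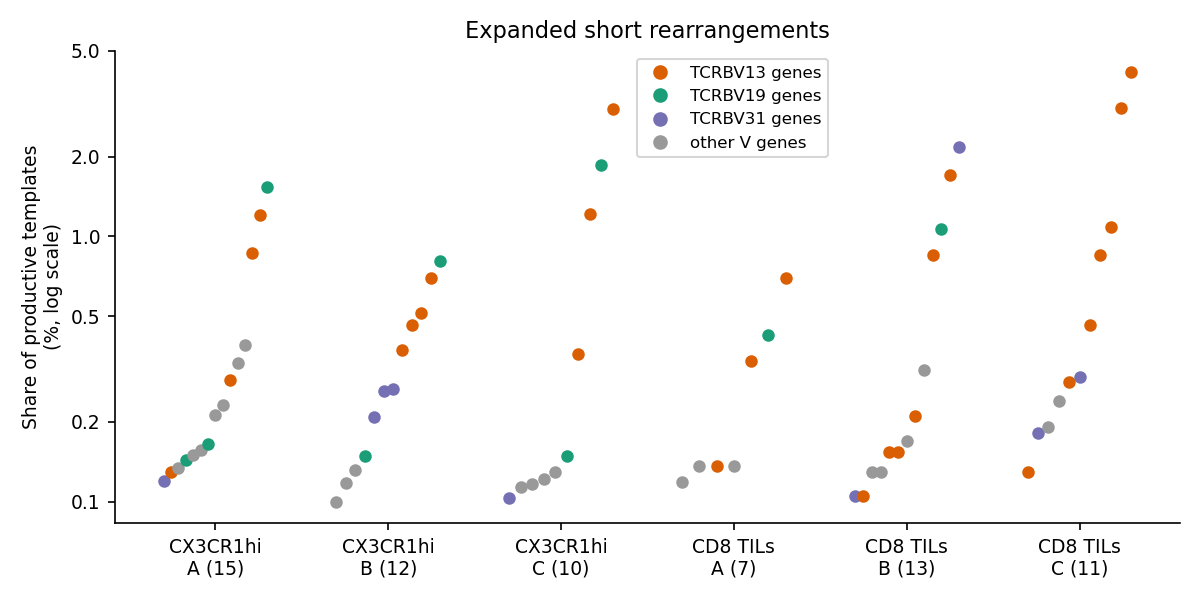
Each point is a short rearrangement with at least 0.1% of the productive templates of its library, in percent on a log scale, for the 3 CX3CR1hi and 3 TIL libraries (number of points in parentheses), colored by V gene family. The highest points are TCRBV13 rearrangements of experiment C, at 4.16% in TILs and 3.03% in CX3CR1hi cells.

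The 68 expanded entries covered 43 distinct CDR3 AA sequences. Their features are given beside those of all 1683 short rearrangements of the same libraries, as a description. A rearrangement found in several libraries counts once in each, so that the entries are not independent. Of the 68, 46 had 33 nucleotides (67.6%, compared with 75.2%), 20 had 30 (29.4%, compared with 21.2%) and 2 had fewer. TCRBV13 genes were used by 27 (39.7%, compared with 32.5%), TCRBV19-01 by 9 (13.2%, compared with 8.50%) and TCRBV31-01 by 9 (13.2%, compared with 4.93%). TCRBJ02-07 was used by 37 (54.4%, compared with 46.9%) and 19 had no N insertion (27.9%, compared with 29.7%). As the same nucleotide rearrangement, 21 were found in another experiment (30.9%, compared with 14.2%). A CDR3 that begins CASSGG and uses TCRBV13-01 was borne by 9 of the 68 (13.2%), and by 16 of 1683 (0.951%) of all short rearrangements in the same libraries. The 9 include repeated sequences, since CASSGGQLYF, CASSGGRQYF and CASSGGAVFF were each expanded in more than 1 library. This pattern was chosen after its values were seen, so that no test is given. Such rearrangements held 8.07% of all productive templates in TILs of experiment C, 3.39% in CX3CR1hi cells of C and 2.08% in CX3CR1hi cells of A, but 0.0177% in CX3CR1hi cells of B. In the CX3CR1lo libraries they held at most 0.0707%.

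The largest short clones differed between experiments, and the values that follow are descriptions, since these sequences were chosen by abundance. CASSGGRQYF was found in experiment C only, where it had 874 templates in TILs (4.17%), 3472 in CX3CR1hi cells (3.06%), 6 in CD27loCX3CR1lo and 3 in CD27hiCX3CR1lo cells. Its neighbor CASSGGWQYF was also found in C only, with 645 templates in TILs (3.08%) but 1 template in CX3CR1hi cells, 4 in CD27loCX3CR1lo and 0 in CD27hiCX3CR1lo cells. These sequences differ by R7W, and one was abundant in both compartments and the other in the tumor.

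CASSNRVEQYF showed the opposite distribution. It had 2124 templates in CX3CR1hi cells of experiment C (1.87%) and 1 template in TILs of C, where 3 templates correspond to 0.0143%. Similarly, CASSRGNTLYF had 858 templates in CX3CR1hi cells of A (1.54%) and 0 in TILs of A, which allows a share of up to 0.0509%. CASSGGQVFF had 486 templates in CX3CR1hi cells of A (0.871%), 9 in CD27loCX3CR1lo and 4 in CD27hiCX3CR1lo cells of A, and 0 in TILs of A, under the same limit of 0.0509%. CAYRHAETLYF was a tumor-weighted clone of experiment B, with 270 templates in TILs (2.18%) and 133 in CX3CR1hi cells (0.261%).

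As AA sequences, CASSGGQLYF, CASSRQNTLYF, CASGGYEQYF, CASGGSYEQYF and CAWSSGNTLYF were expanded in more than 1 experiment. The most abundant rearrangement of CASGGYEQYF in TILs held 0.136%, 0.848% and 1.09% of templates in A, B and C. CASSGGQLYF had 677 templates in CX3CR1hi cells (1.21%) and 41 in TILs (0.696%) of A, and 9 (0.0177%) and 26 (0.210%) in B. It had 2 templates in CX3CR1hi cells of C and 0 in TILs of C. Over the 6 CX3CR1lo libraries it had 3 templates. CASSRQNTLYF had 627 templates in CX3CR1hi cells (1.23%) and 135 in TILs (1.09%) of B, and 99 (0.178%) and 25 (0.424%) in A. Its largest CX3CR1lo value was 21 templates in CD27loCX3CR1lo cells of B (0.116%), and its main nucleotide rearrangement held 45.8% of its templates, with the rest spread over 10 others. The rearrangement of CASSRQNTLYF that was expanded in A was found in A only, and 147 templates of this sequence used TCRBV14-01.

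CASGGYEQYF and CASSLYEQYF were the only short AA sequences, 2 of 6152, found in all 6 CX3CR1hi and TIL libraries. Both were found in all 12 libraries. Among longer AA sequences, 15 were found in all 6. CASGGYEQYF held 0.0272%, 0.0715% and 0.0463% of templates in CD27loCX3CR1lo cells of A, B and C, and 0.0260%, 0.0529% and 0.0266% in CD27hiCX3CR1lo cells. It held 0.217%, 0.528% and 0.158% in CX3CR1hi cells and 0.272%, 1.01% and 1.70% in TILs. Each of these values was above every CX3CR1lo value. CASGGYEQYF was, however, also chosen for its abundance in CX3CR1hi cells of B and TILs of C, so that this order is a description only. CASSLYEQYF, by contrast, lay between 0.00784% and 0.127% in all 12 libraries, and its highest value was 144 templates in CX3CR1hi cells of C. These sequences had 24 and 26 different nucleotide rearrangements over the series.

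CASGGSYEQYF and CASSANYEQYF, of 33 nucleotides, were further abundant members. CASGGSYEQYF had 1421 templates in CX3CR1hi cells of C (1.25%) and 59 in TILs of C (0.282%), while in A it had 14 (0.0251%) and 20 (0.339%) and in B 0 in both. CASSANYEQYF had 358 templates in CX3CR1hi cells (0.702%) and 215 in TILs (1.74%) of B and 0 in these libraries of A and C.

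Productive rearrangements were compared with out-of-frame ones, which encode no receptor and are carried along on the second allele. The short share of unique rearrangements was 5.49% ± 0.0816 among productive and 3.97% ± 0.466 among out-of-frame rearrangements (SD, n = 3 experiments, mean of 4 libraries each), a difference of 1.52 ± 0.548 percentage points in 3 of 3 experiments (exact sign-flip permutation test, p = 0.25, the smallest possible). This comparison turned with the limit. Out-of-frame lengths are never multiples of 3, and with out-of-frame rearrangements of up to 34 nucleotides counted as short, the difference was −0.767 points, and under a limit of 30 nucleotides for both it was −0.179. In TILs of experiment C the out-of-frame share exceeded the productive one even at the same limit, at 5.88% against 4.88%.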

How the data were processed

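TCRβ rearrangements were analysed in 12 libraries of genomic DNA. The authors amplified them with the ImmunoSEQ kit at survey level, sequenced them with a NextSeq instrument and obtained processed data from the ImmunoSEQ platform. Software versions are not given in the sources used here, and the submitters' notes name mm10. The deposited template counts are whole numbers without normalization. The deposited fraction of each rearrangement (headed as percent) is relative to all templates, also non-productive ones, and no result rests on it. CDR3 lengths, trimmed and inserted bases and V and J names are those in the deposited files, and all 31 genes with at least 1% matched a mouse gene symbol. V and J reads that could be assigned to several genes were left unresolved.

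Groups and experiments came from the sample labels. Productive rearrangements (in frame, no stop codon) were kept, and a clonotype was a nucleotide rearrangement. Productive templates per library ranged from 5893 to 113660. Wilson 95% intervals and the floor of 3 templates cover counting error only. Single values per library were tested with two-sided exact permutations of groups within experiments (replicate block, as the study treated experiments as repeated measures), and experiments by exact sign flips. The smallest p was 0.00926 for 4 groups, 0.037 for 3 splenic groups and 0.25 for sign flips. Nothing says which mice the libraries of an experiment share. The permutation p-values compare groups inside these experiments, and no p-value measures the spread between mice. The code shared in the labels paired libraries, and short TIL rearrangements were found in CX3CR1hi cells of the same experiment at 26.0% to 50.0%, while libraries of the same group in different experiments shared 2.65% to 7.22% of the smaller one. These are different pairs of groups. No such share is given for TILs and CX3CR1hi cells of different experiments, so that these values do not test the pairing. V and J genes with at least 1% of short rearrangements were tested with Benjamini-Hochberg adjustment at 0.05. In 300 simulated sets each, with the same spread in every group, the 4-group and splenic tests called 4% of sets with no difference. They called 99% and 84% of sets with a difference of 3 SD, and the sign-flip test called 0% of either kind. Unequal spread, such as template share SDs of 0.121 in CD27hiCX3CR1lo and 4.09 in TILs, was not simulated, so these rates may not hold there.

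CDR3 sequences named are the 3 most abundant short ones of each CX3CR1hi and TIL library and those found in all 6. A few other CDR3 sequences in the text were chosen after their values were seen. V and J genes named are the 6 V and 4 J genes with the highest share among short rearrangements, the 3 V and 2 J genes with the largest differences from longer ones in each direction and those past the threshold, and others named in the text were chosen after their values were seen. The members and lists were chosen with earlier results of these data known. Alternatives were the length limit (30 or 36 nucleotides), clonotypes by AA sequence, equal depth (100 draws), a minimum of 2 templates, CDR3s from C to F only, the most abundant clone left out, expansion limits of 0.05% and 0.5%, templates for V and J use, no filter on low shares, no block, each experiment left out, and 3 chosen after seeing the data. Python 3.11.15, numpy 2.4.6, pandas 2.3.3, scipy 1.17.1 and matplotlib 3.10.9 were used.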

Additional observations from a re-analysis of the deposited data

Results flagged for a closer look

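TCRBV14-01 and TCRBV19-01 were used more by short than by longer rearrangements in every library of the 3 splenic groups and less in every TIL library. For TCRBV14-01 the mean difference was 0.793 percentage points in CD27loCX3CR1lo, 0.902 in CD27hiCX3CR1lo and 0.709 in CX3CR1hi cells, and −1.42 in TILs. For TCRBV19-01 it was 1.20, 1.07 and 1.02 points in the same order, and −4.52 in TILs. The difference between the groups was not tested. The 3 TIL libraries hold 73 to 106 short rearrangements each, so that these shares rest on few rearrangements.

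In-frame rearrangements with a stop codon, which were left out of all comparisons, also included short ones. They numbered 138 of 3085 (4.47%) and carried 208 templates over the 12 libraries. The most abundant ones had 20 and 12 templates, both in CX3CR1hi cells of experiment A.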

How the results depend on the processing

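Of 114 values recomputed under an alternative, 93 kept their direction and their side of the threshold, 13 turned direction, 1 of them past the threshold, 5 newly passed the threshold in the same direction, and 3 counts of genes moved. The difference in unique share between the CX3CR1hi and TIL libraries and the CX3CR1lo subsets (0.0166 points) was −0.439 at 36 nucleotides, −1.44 with a minimum of 2 templates (p = 0.0185, exact permutation test), −0.0518 with CDR3s from C to F only, −0.184 at equal depth, and −0.0862 to 0.112 with each experiment left out. It newly passed, at 0.278, at 30 nucleotides. The difference in template share was −0.370 at 36 nucleotides, −0.148 with a minimum of 2 templates and −0.00485 without the most abundant short rearrangement, and 0.454 to 2.75 with each experiment left out. For CX3CR1hi cells alone, the minimum of 2 templates gave −0.879 points for unique and −0.0736 for template share, 36 nucleotides gave 0.776 for unique share (p = 0.037, exact permutation test, newly passed), and no replicate block left the unique difference at 0.361 but moved it past the threshold. The block changed no other call. N insertions newly passed at 30 nucleotides (0.555) and turned to −0.00868 with CDR3s from C to F only. Short rearrangements found in another experiment newly passed at equal depth, at 4.06 points, and ranged from 0.735 to 2.86 with each experiment left out, when only 1 other experiment remains to match. The excess over out-of-frame rearrangements was −0.179 at 30 nucleotides and −0.767 with an out-of-frame limit 1 nucleotide longer, chosen after seeing the data. V and J calls numbered 12 with templates, 9 with J ties counted as TCRBJ02-07 and 7 without the most abundant short rearrangement, the last 2 settings also chosen after seeing the data, against 0 with unique rearrangements, and 0 under every other alternative. The causes were not tested. With 2 experiments the smallest p is 0.0556 for 4 groups, 0.111 for the splenic groups and 0.5 for sign flips, so that leaving one out cannot pass the threshold. Depth limits the TILs most, where 3 templates are 0.0509% of the library in experiment A.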
